A study of Mus musculus with 2 samples.

Results

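Transcripts of 41 cell division genes, 20 that act in DNA replication and 21 that act in mitosis, were followed through 4 kinds of cell in mouse brain carrying a G422 glioma. The genes were chosen by name, as widely used markers of the DNA synthesis phase and of mitosis, with earlier results of these data known, and the rule itself uses no measured value. All 41 were found among the 27998 genes of the matrices. They were read in tumour-like, microglia-like, T cell-like and endothelial-like cells of each library. Barcodes with 1 to 100 UMIs, which hold free RNA rather than cells, served as the background.

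The 2 libraries came from Kunming mice with tumours of the G422 line (G422TN in the study's design, G422-GBM in the labels) placed in the brain. The LTS library came from mice that had survived more than 100 days after a combined therapy and had then received the same tumour on the other side of the brain, after which, per the study's design, they again lived for over 100 days. Its treatment is not specified further, and the sources do not make clear from which inoculation its harvest on day 7 counts. The control library was made from mice left untreated and harvested on day 7 of the tumour. How many animals went into each library is not stated. In both, digested tissue was passed through a 40 µm filter, and the cells between 70% and 37% Percoll, a layer enriched in immune cells, were taken for 3' version 3 droplet libraries. The shares of the cell kinds therefore reflect that layer.

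The LTS library held 149413534 UMIs and the control library 165796852 UMIs. Barcodes with at least 1000 UMIs, at least 300 genes and at most 15% mitochondrially encoded UMIs were kept as cells, which left 4835 LTS cells with a median of 18779 UMIs and 8310 control cells with a median of 14889.5 UMIs. The libraries shared 13 cell barcodes. Cells were clustered without the 41 genes and other cell cycle genes, so no class was drawn from the values reported here, although genes outside those lists that vary with the cycle were kept in. Tumour-like cells numbered 2570 in LTS and 5197 in control, microglia-like cells 871 in LTS and 1152 in control, T cell-like cells 485 in LTS and 98 in control, and endothelial-like cells 74 in LTS and 143 in control. Clusters were named from marker genes and from 4 Y-linked genes, so the levels of these describe the classes and are no separate check of the names. The tumour markers were taken from earlier results of these data. Microglia genes summed to 20635 CPM (UMIs of a gene per 1000000 UMIs of the class) in LTS and 16875 CPM in control microglia-like cells. T cell genes summed to 4102 CPM in LTS and 2051 CPM in control T cell-like cells, and endothelial genes to 7605 CPM in LTS and 5804 CPM in control endothelial-like cells. Tumour-like clusters carried 0.669 to 1.43 CPM of the 4 Y-linked genes, against 54.6 CPM or more in the microglia-like, T cell-like and endothelial-like clusters. With 1 library per group no test between LTS and control was possible. Every interval below is a 95% interval of counting error, which treats UMIs as independent and leaves out the spread between cells, animals and preparations.

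A dividing cell first copies its genome and then separates the copies. Replication origins are licensed when Cdc6 helps load the ring of Mcm2 to Mcm7, and the helicase starts when Cdc45 and the GINS complex join that ring. Genes of this step are switched on by E2F factors as a cell enters the DNA synthesis phase, while genes of mitosis are held down by the DREAM complex and switched on later through B-Myb and FoxM1, often by way of promoter elements called CHR and CCAAT boxes. In tumours both sets are read as a measure of how many cells are dividing, and in brain they can also come from microglia, lymphocytes and vessel cells that divide in response to injury.

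The 2 lists differed in the short motifs at their promoters, which the choice of genes did not use. RefSeq windows from 250 bases before to 50 bases after the transcription start on GRCm38.p6 were matched for 35 of the 41 genes, and Mcm4, Esco2, Gins2, Ccna2, Tpx2 and Aurkb had no entry. An E2F word (TTTCCCGC, TTTCGCGC, TTTGCCGC or TTTGGCGC, on either strand) stood in the windows of 7 of 17 replication genes and of 1 of 18 mitosis genes, against 2.60% of the 27025 genes in the table. The 7 were Mcm3, Mcm5, Mcm6, Mcm7, Lig1, Cdc6 and Uhrf1, and the mitosis gene was Cdk1. A CHR word (TTTGAA or TTCGAA, on either strand) stood in 3 of 17 replication and 14 of 18 mitosis genes, against 21.7% of all genes. CCAAT, on either strand, stood in 12 of 17 and 16 of 18, against 41.1% of all genes. A match describes these letters in this window and is not a measured binding site.

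Promoters of 6 genes are shown so that these words can be read in place, as the 250 bases before the start. They belong to the 3 genes of each list with most UMIs in tumour-like cells among those holding the word there. In the replication genes Mcm7, Mcm6 and Uhrf1 the capitals mark E2F words.
Mcm7, chr5:138171884-138172133, minus strand: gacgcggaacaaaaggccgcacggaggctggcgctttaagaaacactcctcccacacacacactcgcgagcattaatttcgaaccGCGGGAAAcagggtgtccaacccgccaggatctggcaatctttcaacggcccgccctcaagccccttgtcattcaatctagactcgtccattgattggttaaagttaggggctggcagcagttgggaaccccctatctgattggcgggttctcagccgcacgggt
Mcm6, chr1:128359706-128359955, minus strand: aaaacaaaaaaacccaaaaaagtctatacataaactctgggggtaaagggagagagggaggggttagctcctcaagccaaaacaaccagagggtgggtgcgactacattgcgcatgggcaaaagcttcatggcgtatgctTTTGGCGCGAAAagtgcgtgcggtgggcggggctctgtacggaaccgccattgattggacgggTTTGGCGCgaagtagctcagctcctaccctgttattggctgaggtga
Uhrf1, chr17:56304063-56304312, plus strand: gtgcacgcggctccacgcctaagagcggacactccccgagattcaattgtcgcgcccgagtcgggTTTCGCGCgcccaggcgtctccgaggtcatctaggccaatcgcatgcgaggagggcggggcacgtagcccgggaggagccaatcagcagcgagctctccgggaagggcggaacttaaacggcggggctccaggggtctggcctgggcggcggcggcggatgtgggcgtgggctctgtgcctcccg
The long capital run of Mcm6 is TTTGGCGC overlapping the reverse of TTTCGCGC. In the mitosis genes Top2a, Cdk1 and Ube2c the capitals mark CHR and CCAAT words of either strand.
Top2a, chr11:99024190-99024439, minus strand: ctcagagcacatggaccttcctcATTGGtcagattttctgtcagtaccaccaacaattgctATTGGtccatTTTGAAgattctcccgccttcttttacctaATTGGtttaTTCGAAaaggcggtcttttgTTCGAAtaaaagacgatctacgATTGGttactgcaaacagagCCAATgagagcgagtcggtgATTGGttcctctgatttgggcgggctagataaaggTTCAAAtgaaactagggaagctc
Cdk1, chr10:69352913-69353162, minus strand: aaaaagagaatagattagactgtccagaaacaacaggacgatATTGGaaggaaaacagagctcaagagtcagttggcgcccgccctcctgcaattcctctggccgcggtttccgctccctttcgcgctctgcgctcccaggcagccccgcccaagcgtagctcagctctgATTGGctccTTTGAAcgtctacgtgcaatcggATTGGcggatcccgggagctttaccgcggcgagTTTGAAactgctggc
Ube2c, chr2:164769679-164769928, plus strand: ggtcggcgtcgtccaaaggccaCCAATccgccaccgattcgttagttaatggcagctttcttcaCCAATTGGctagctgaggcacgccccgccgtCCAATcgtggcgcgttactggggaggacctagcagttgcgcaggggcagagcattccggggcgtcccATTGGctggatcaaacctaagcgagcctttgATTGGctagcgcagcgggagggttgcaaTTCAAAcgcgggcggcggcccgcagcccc
In Ube2c a CCAAT overlaps a reversed one, which gives the longer run CCAATTGG. Top2a held 4 CHR words in these 250 bases, Cdk1 held 2 and Ube2c held 1.

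In tumour-like cells the replication genes were close to level between the libraries. Their UMIs summed to 1638 CPM in LTS (1630 to 1646) and 1746 CPM in control (1738 to 1754), a ratio of LTS over control of 0.938 (0.932 to 0.944). No member reached 1.5-fold in either direction, the size of difference counted as called here, where 0.405% of 6419 tested genes were called lower and 0.0156% higher. A gene was tested where either library had at least 20 CPM, and called on the log2 ratio with a pseudocount of 5 CPM. The median log2 ratio was -0.09 over the 20 replication genes and -0.01 over all tested genes. The counting interval lay below 1 for 14 members and above 1 for 2.

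The helicase genes were on the lower side in LTS. Mcm7, a subunit of the replicative helicase, had 133 CPM in LTS and 159 CPM in control tumour-like cells, a ratio of 0.835 (0.816 to 0.853). Mcm6, its neighbour in the ring, had 113 CPM in LTS and 134 CPM in control. Mcm2, Mcm3, Mcm4 and Mcm5 had ratios between 0.910 and 0.954, so all 6 subunits of the ring were lower in LTS by small amounts. Gins2, a subunit of the GINS complex, had 62.6 CPM in LTS and 60.1 CPM in control, and Cdc45 had 45.9 CPM in LTS and 45.5 CPM in control. These helicase activators thus sat level with, or just above, the control library. Cdc6, the loader, had 26.4 CPM in LTS and 28.3 CPM in control.

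Genes of nucleotide supply and of the fork were also near level. Rrm1 and Rrm2, the subunits of ribonucleotide reductase, had ratios of 0.985 (0.959 to 1.01) and 0.934 (0.913 to 0.955). Tk1, thymidine kinase, had 102 CPM in LTS and 101 CPM in control, and Tyms, thymidylate synthase, had 65.3 CPM in LTS and 73.4 CPM in control. Pcna, the sliding clamp, had 86.7 CPM in LTS and 89.5 CPM in control. Lig1, the ligase that joins Okazaki fragments, was lower, with 65.6 CPM in LTS and 75.7 CPM in control. Uhrf1, which guides DNA methylation onto the new strand, had the highest ratio of the list, with 106 CPM in LTS and 101 CPM in control (1.05, 1.03 to 1.08). Esco2, the acetyltransferase that sets sister chromatid cohesion, had the lowest, with 20.1 CPM in LTS and 25.3 CPM in control (0.794, 0.750 to 0.840). Slbp, which binds the stem loop of histone transcripts, had 131 CPM in LTS and 132 CPM in control. The repair genes Ung and Brca1 had ratios of 0.917 and 0.916.

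The mitosis genes summed to 2580 CPM in LTS (2571 to 2590) and 2835 CPM in control (2825 to 2845), a ratio of 0.910 (0.905 to 0.915). No mitosis gene was called, their median log2 ratio was -0.08, and the counting interval lay below 1 for 17 and above 1 for 1. Mki67, the Ki-67 coat protein of mitotic chromosomes, had the lowest ratio of all 41 genes, with 143 CPM in LTS and 190 CPM in control (0.753, 0.738 to 0.769). Nusap1, a spindle protein, followed with 46.2 CPM in LTS and 59.8 CPM in control (0.774, 0.746 to 0.803). Top2a, the topoisomerase that untangles sister chromatids, had the most UMIs of the list, 464 CPM in LTS and 548 CPM in control.

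Among the kinases and cyclins of mitosis, Cdk1 had 240 CPM in LTS and 246 CPM in control. Ccnb1, its cyclin, had 96.1 CPM in LTS and 97.1 CPM in control, while Ccnb2 and Ccna2 had ratios of 0.908 and 0.949. Aurka and Plk1, kinases of the spindle poles, had ratios of 0.989 and 0.921. These regulators differed less between the libraries than Mki67 and Nusap1 did. Among genes of the kinetochore and spindle, Cenpe, a motor protein, had 133 CPM in LTS and 159 CPM in control, and Cenpf had 162 CPM in LTS and 186 CPM in control. Aurkb and Birc5, partners in the chromosomal passenger complex, had ratios of 0.892 and 0.975. Tpx2, Hmmr, Kif11, Kif23 and Prc1, which build or bundle spindle microtubules, lay between 0.901 and 0.948. The anaphase genes were split: Ube2c, the ubiquitin-conjugating enzyme of the anaphase-promoting complex, had 217 CPM in LTS and 206 CPM in control (1.05, 1.04 to 1.07), and Cdc20, that complex's activator, had 61.3 CPM in LTS and 67.3 CPM in control. Bub1, a checkpoint kinase, had 38.1 CPM in LTS and 37.2 CPM in control. Tumour-like cells were deeper in LTS, with a median of 40584 UMIs per cell against 20221 in control, and the part of depth in these ratios was not tested.

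**Figure D1:**
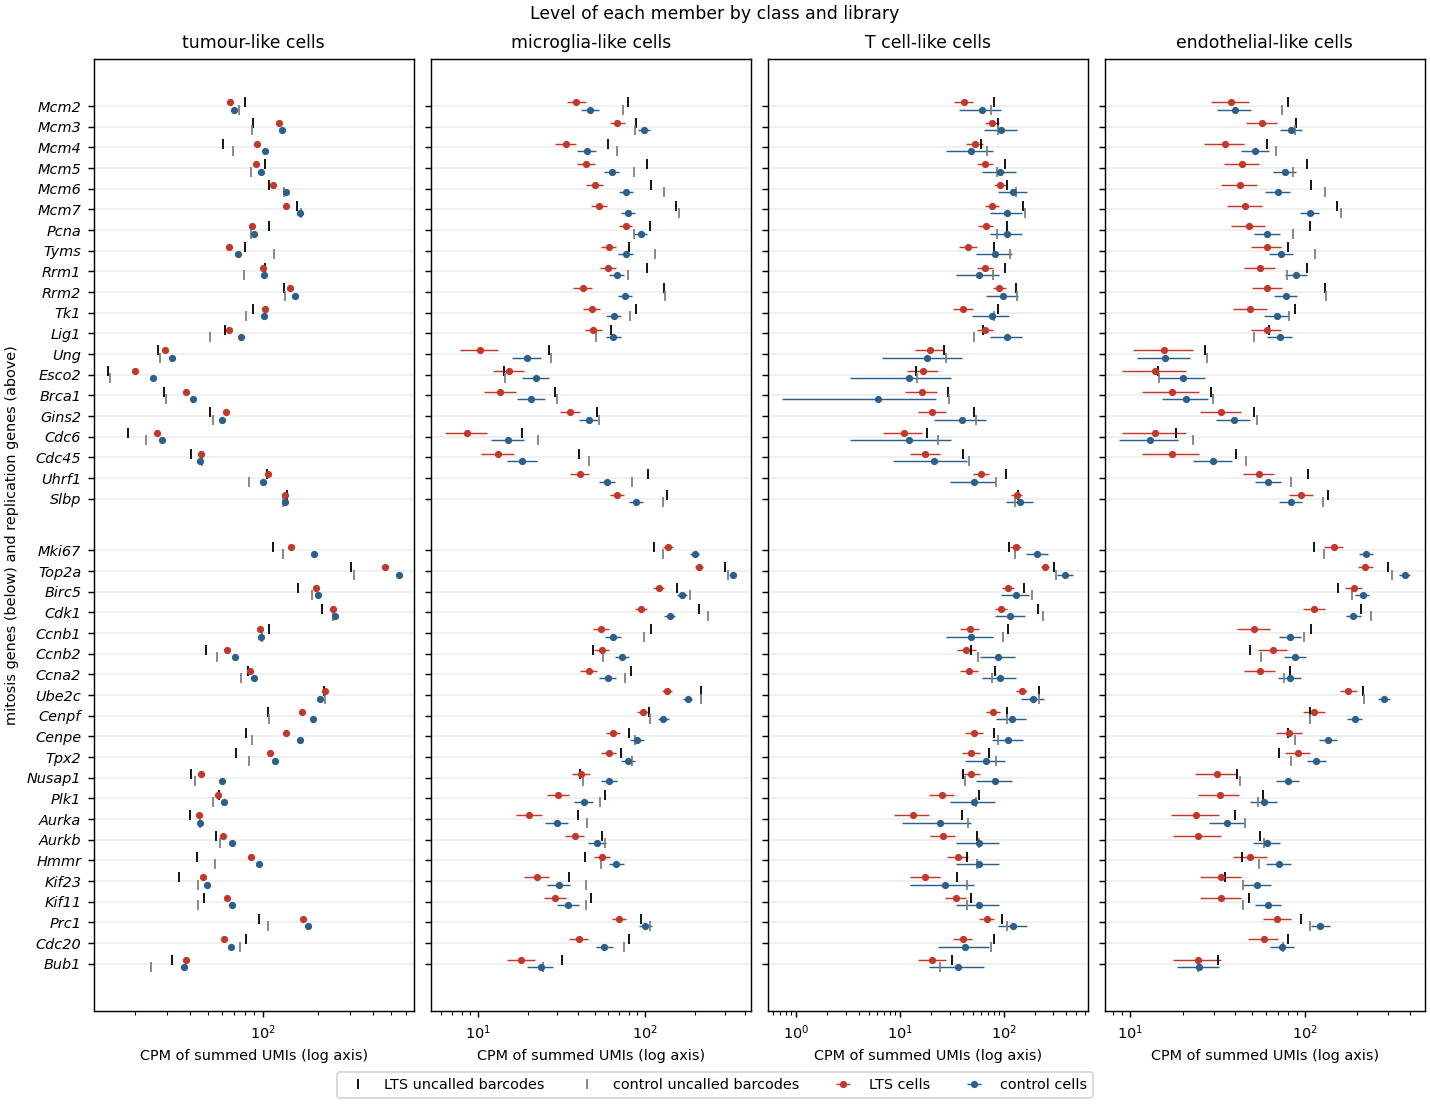
Level of each of the 41 genes in 4 classes, in CPM of the class's summed UMIs on a log axis, with LTS cells in red and control cells in blue. Bars are 95% counting intervals and the upright ticks are the level in uncalled barcodes of LTS (black) and control (grey). In tumour-like cells the red and blue points of each gene lie close together, and in microglia-like cells every red point lies left of its blue one.

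Within tumour-like cells the lists were used at different levels by different cells. Cells were thinned to 5000 UMIs, which left 2454 LTS and 5072 control cells, and binned by their mitosis UMIs. Cells with 0 to 4 mitosis UMIs made up 38.5% in LTS and 32.3% in control, and held a median of 4 replication UMIs in both libraries. The median was highest, at 11 in both, in cells with 10 to 14 mitosis UMIs. It was 7 in both in cells with 30 or more, so replication transcripts were most abundant at middle levels of mitosis transcripts. The median depth before thinning also differed along the bins, at 33459 UMIs in the lowest and 53272 in the highest LTS bin, and 15759 in the lowest and 27159 in the highest control bin, and its part was not tested.

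The 20 replication genes did not all follow that course. Ung, the uracil glycosylase, had 53.1 CPM in LTS and 58.0 CPM in control in cells with 5 to 9 mitosis UMIs, its highest bin. It had 2.93 CPM in LTS and 4.80 CPM in control in cells with 30 or more, so it was nearly absent from the cells with most mitosis transcripts. Cdc6 had the same shape, with its highest level at 5 to 9 mitosis UMIs and 7.22 CPM in LTS and 10.2 CPM in control at 30 or more. Esco2 ran the other way. It had 2.16 CPM in LTS and 3.24 CPM in control in the lowest bin, and 39.2 CPM in LTS and 47.9 CPM in control in the highest, 18.2 times as much in LTS and 14.8 times in control. Tk1 was 5.24 times as high in the top bin as in the lowest in LTS and 4.31 times in control, Brca1 4.09 times in LTS and 3.51 times in control, and Rrm1 2.79 times in LTS and 2.66 times in control. The Mcm genes peaked at 5 to 14 mitosis UMIs in both libraries. In all, 16 of the 20 genes had their highest level at 5 to 14 mitosis UMIs in LTS and 14 in control, and 10 had it in the same bin in both libraries.

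**Figure D2:**
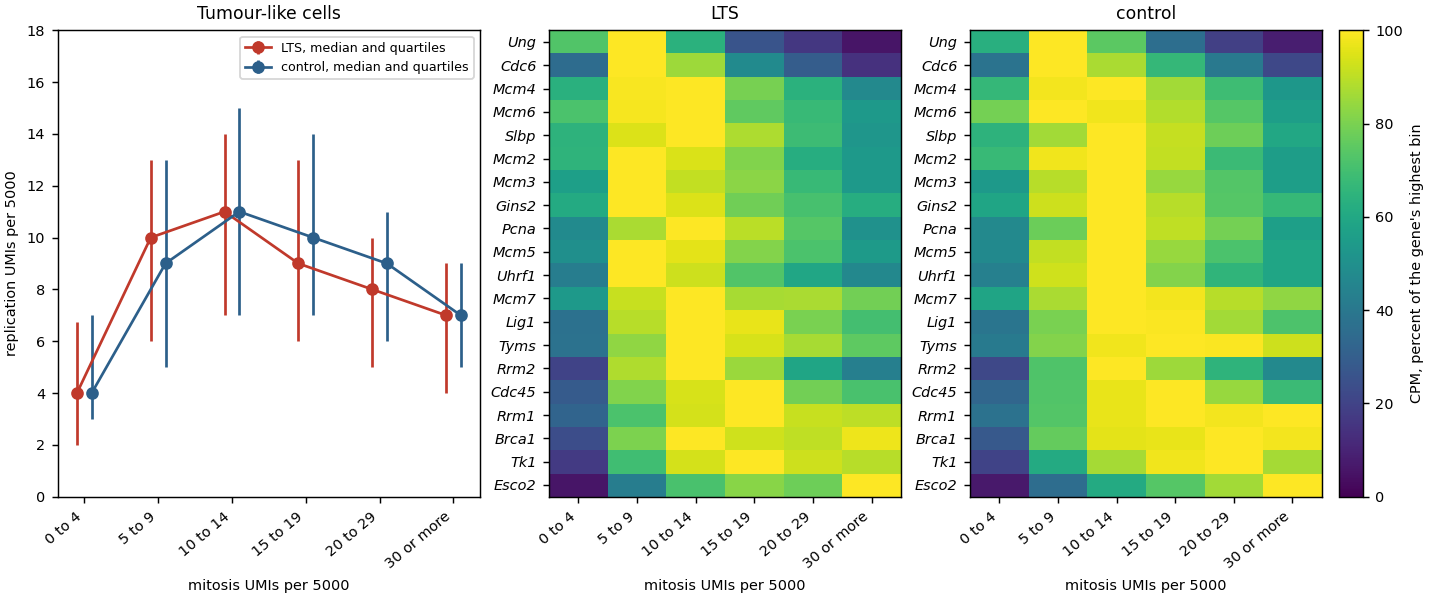
Left, median replication UMIs per 5000 in tumour-like cells grouped by their mitosis UMIs per 5000, with quartiles as bars, LTS in red and control in blue. Centre and right, the level of each replication gene across the same groups as a percent of its highest group, in LTS and in control, with Ung and Cdc6 brightest at the left and Esco2 at the right.

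The same division showed in the correlation of genes across tumour-like cells, given here as a description, since cells of 1 library share its depth and free RNA. The median Pearson r of log values was 0.605 in LTS and 0.503 in control over 210 pairs of mitosis genes, and 0.358 in LTS and 0.258 in control over 190 pairs of replication genes. Between the lists it was 0.161 in LTS and 0.115 in control over 420 pairs. The highest pair was Cenpf with Prc1, at 0.781 in LTS and 0.702 in control, and the lowest was Ung with Nusap1, at -0.268 in LTS and -0.223 in control. Ung had a mean r of -0.20 in LTS with the mitosis genes, the lowest of the replication list. Esco2, Tk1 and Rrm1 went with the mitosis genes more than with their own list in both libraries. For Esco2 the mean r was 0.365 in LTS and 0.293 in control with mitosis genes, and 0.261 in LTS and 0.204 in control with replication genes. The correlation of single genes with the depth of the cell ran from 0.10 for Ung in both libraries to 0.416 in LTS and 0.440 in control (Cdk1 in LTS). LTS cells were also the deeper ones, and the part of depth in their higher r was not tested.

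**Figure D3:**
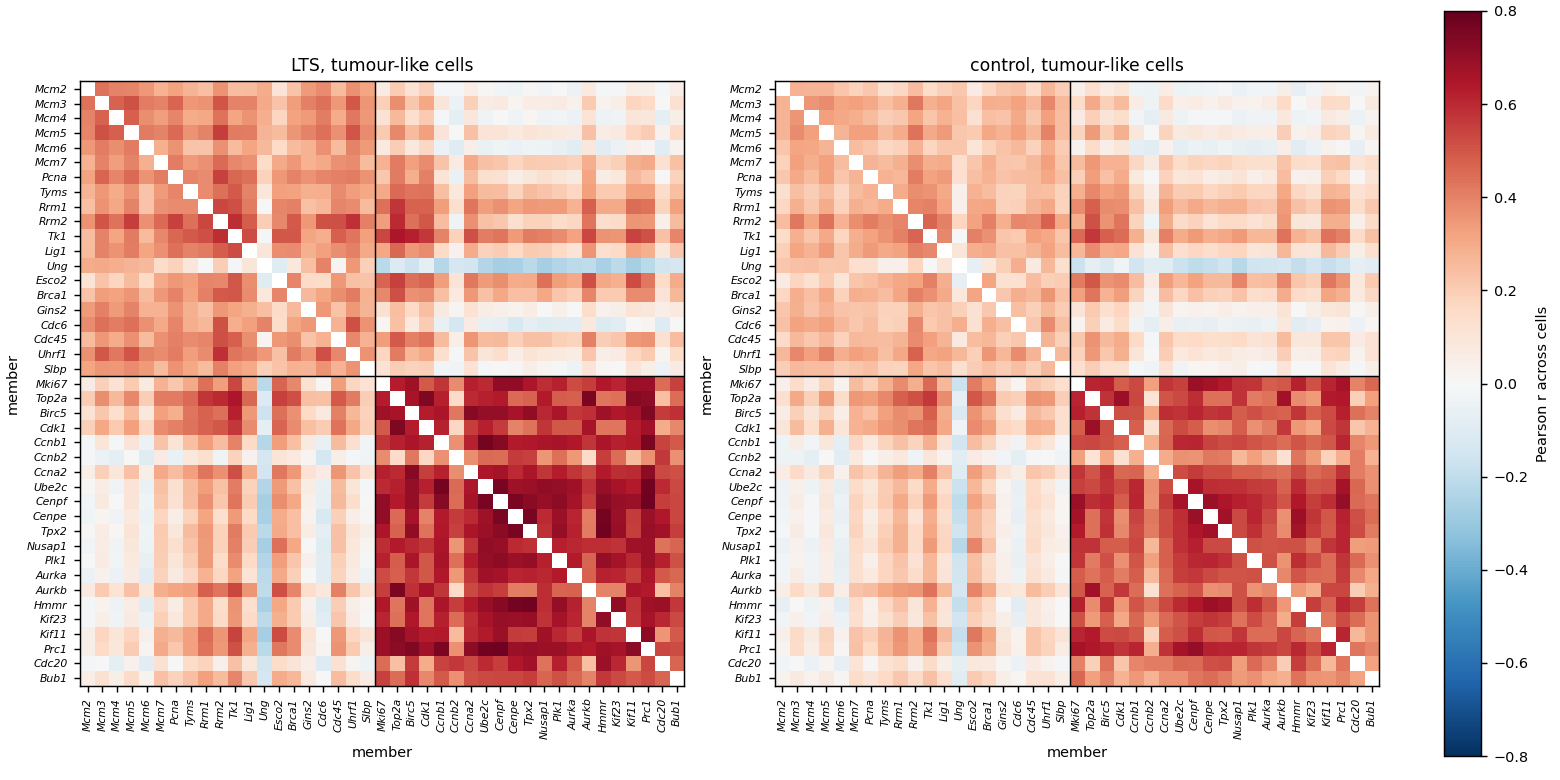
Pearson r between the 41 genes across tumour-like cells, in 2570 LTS cells (left) and 5197 control cells (right), from log values of UMIs scaled to 10000 per cell. The lower right block of mitosis genes is darkest, the upper left block of replication genes is paler, and the row of Ung turns blue against the mitosis genes.

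Genes outside all lists were ranked by their r with the mean of each list, over 10186 genes. The 8 most like the replication list were Hist1h2ap, Hist1h1b, 2810417H13Rik, Fam111a, Dek, Ncapg2, Hat1 and Tmpo. Hist1h2ap, a histone H2A gene, had r of 0.722 in LTS and 0.672 in control. Among the 8 most like the mitosis list were Fam64a, Casc5, Tuba1b, Sgol2a, Sgol1, H2afz and 2810417H13Rik. Fam64a had 0.784 in LTS and 0.693 in control, and Casc5, a kinetochore scaffold, had 0.753 in LTS and 0.665 in control. The gene 2810417H13Rik stood in both rankings.

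Tumour-like cells fell into 7 clusters, and the lists differed among them. The 41 genes were not used to form the clusters, but other genes of the cycle could enter: Fam64a, the gene most like the mitosis list, was not left out and was among the leading genes of cluster 0, with Cenpa and Ube2c. The mitosis level of cluster 0 is therefore not independent of how it was formed. Cluster 5, led by the matrix genes Postn, Mgp and Col1a1, had the lowest sums of both lists, with 1036 CPM of replication genes in LTS and 1194 CPM in control, and 1552 CPM in LTS and 1612 CPM in control of mitosis genes. Cluster 6, led by Il11 and Areg, had the most replication transcripts, with 1933 CPM in LTS and 2013 CPM in control. Its mitosis genes came to 2223 CPM in LTS and 2568 CPM in control, below the 3164 CPM in LTS and 3283 CPM in control of cluster 0. Single genes made the contrast plain. Rrm2 had 234 CPM in LTS and 239 CPM in control in cluster 6, against 154 CPM in LTS and 155 CPM in control in cluster 0. Cenpe had 82.3 CPM in LTS and 106 CPM in control in cluster 6, against 168 CPM in LTS and 190 CPM in control in cluster 0. Ccnb2, a mitotic cyclin, had 31.2 CPM in LTS and 44.7 CPM in control in cluster 6, against 75.6 CPM in LTS and 81.3 CPM in control in cluster 0. Slbp differed little among the 7 clusters, from 116 to 153 CPM in LTS and from 124 to 138 CPM in control. In cluster 11, led by the interferon-induced genes Ifit1, Ifi44 and Cxcl10, mitosis genes had 2211 CPM in LTS and 2915 CPM in control while replication genes had 1749 CPM in LTS and 1724 CPM in control. Mki67 in that cluster had 132 CPM in LTS and 212 CPM in control.

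Before free RNA was taken off, microglia-like, T cell-like and endothelial-like cells carried both lists at lower summed levels than tumour-like cells. Part of what they carried was the level expected of free RNA. The amount of free RNA was estimated from 12 tumour markers, as the median over markers of the level in the class over that in uncalled barcodes. Single markers gave 8.49% to 67.2% in LTS microglia-like cells, so the estimate is rough. The median came to 11.9% in LTS and 27.5% in control microglia-like cells, 32.9% in LTS and 56.2% in control T cell-like cells, and 34.4% in LTS and 47.7% in control endothelial-like cells. Uncalled barcodes held 1588 CPM of replication genes in LTS and 1558 CPM in control, and 2022 CPM in LTS and 2146 CPM in control of mitosis genes. Choroid plexus-like cells, an epithelium that is not expected to divide, held 799 CPM of replication genes in LTS and 701 CPM in control where free RNA would give 731 CPM in LTS and 947 CPM in control. Their mitosis genes came to 754 CPM in LTS and 924 CPM in control, under the 931 CPM in LTS and 1304 CPM in control that free RNA would give. These choroid plexus-like sums rest largely on single cells, so they are a weak check of the estimate. The top cell of 68 in LTS held 38.5% of the replication and 47.6% of the mitosis UMIs. In control the top cell of 12 held 48.9% and 62.9%. By the median estimate, the microglia-like, T cell-like and endothelial-like cells stood above the level that free RNA would give for both lists in both libraries. By the highest single markers this need not hold. Tumour markers summed to 387.5 CPM in LTS and 888 CPM in control microglia-like cells, 708 CPM in LTS and 1691 CPM in control T cell-like cells and 1112 CPM in LTS and 1309 CPM in control endothelial-like cells, with none of the 12 at 0, against 2427 CPM in LTS and 2923 CPM in control tumour-like cells.

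**Figure D4:**
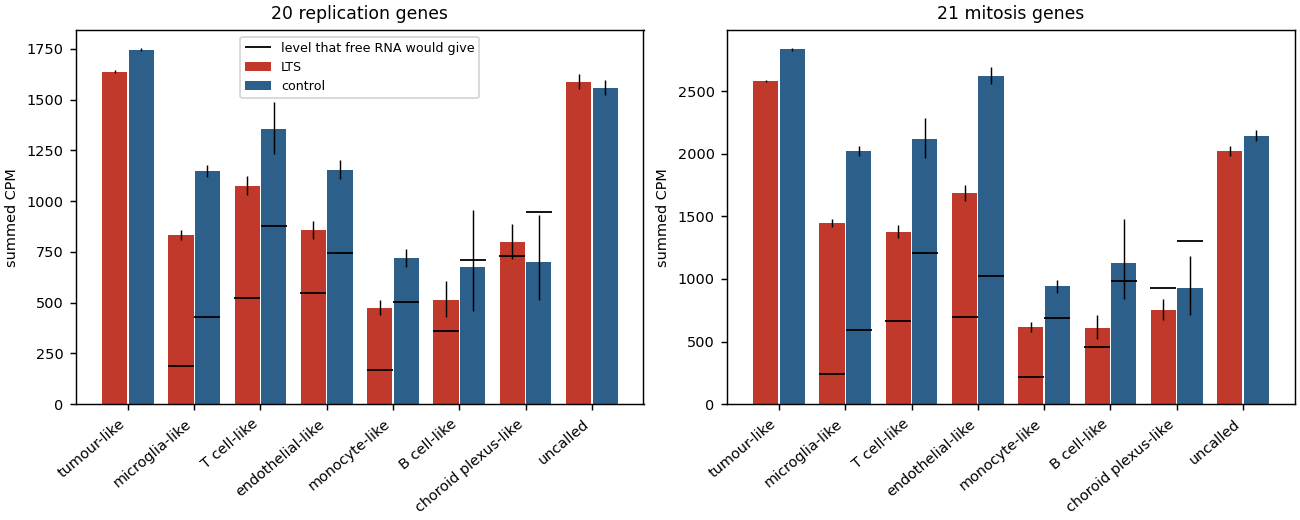
Summed level of the 20 replication genes (left) and the 21 mitosis genes (right) by class, in CPM from 0, LTS in red beside control in blue, with 95% counting intervals. The short black lines mark the level that free RNA alone would give by the median estimate. The microglia-like, T cell-like and endothelial-like bars stand above it, and the choroid plexus-like mitosis bars stand below it.

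Microglia, the resident macrophages of brain, had both lists at lower levels in LTS. Replication genes summed to 832 CPM in LTS (809 to 856) and 1146 CPM in control (1118 to 1176), and mitosis genes to 1445 CPM (1415 to 1476) in LTS and 2020 CPM (1982 to 2059) in control. The ratios were 0.726 (0.699 to 0.754) and 0.716 (0.695 to 0.736). All 38 tested members were on the lower side in LTS, with a median log2 ratio of -0.40 for each list against -0.01 over all tested genes. With the pseudocount of 5 CPM only Rrm2 and Top2a were called, 2 of 38, where 2.65% of 6334 tested genes were called lower and 1.25% higher. Rrm2 had 42.5 CPM in LTS and 76.3 CPM in control (0.557, 0.474 to 0.654), and Top2a had 210 CPM in LTS and 336 CPM in control (0.626, 0.582 to 0.674). Mcm6 and Brca1, with plain ratios of 0.650 and 0.653, were past 1.5-fold but not with that pseudocount. Ung, Cdc6 and Cdc45 were under the minimum of 20 CPM in both libraries and were not tested.

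Genes of every step of the cycle were on the lower side in LTS microglia-like cells. Mcm6 had 50.2 CPM in LTS and 77.2 CPM in control, and Uhrf1 had 40.8 CPM in LTS and 59.5 CPM in control. Cdk1 had 95.4 CPM in LTS and 141 CPM in control, and Mki67 had 139 CPM in LTS and 199 CPM in control. The counting interval excluded 1 for 19 replication and 20 mitosis genes, all lower, and the exceptions were Rrm1 (0.889, 0.765 to 1.03) and Kif11 (0.833, 0.672 to 1.03). Ccnb1 had the ratio nearest to 1 of the mitosis list, with 54.6 CPM in LTS and 64.5 CPM in control. Free RNA alone would give 189 CPM of replication genes in LTS and 429 CPM in control, and 241 CPM in LTS and 591 CPM in control of mitosis genes. With that level taken off and the rest rescaled, the log2 ratios were -0.44 for replication and -0.53 for mitosis, against -0.46 and -0.48 before. The makeup of the class differed as well: cluster 13 held 224 LTS cells and 6 control cells, with 513 CPM of replication and 577 CPM of mitosis genes in LTS. In cluster 4 alone, with 406 LTS and 757 control cells, replication genes had 864 CPM in LTS and 1154 CPM in control and mitosis genes 1560 CPM in LTS and 2055 CPM in control. Cluster 8, of shallower cells (241 in LTS and 389 in control), had 961 CPM in LTS and 1096 CPM in control of replication genes and 1580 CPM in LTS and 1803 CPM in control of mitosis genes, a smaller difference. Free RNA made up an estimated 26.2% of cluster 8 in LTS and 49.0% in control. With it taken off and the rest rescaled, cluster 8 had 738 CPM in LTS and 651 CPM in control of replication genes, so the direction turned, and 1423 CPM in LTS and 1473 CPM in control of mitosis genes. In cluster 4 the same step left 790 CPM in LTS and 1023 CPM in control of replication genes, and 1513 CPM in LTS and 2026 CPM in control of mitosis genes. The lower level in LTS thus held in cluster 4 for both lists with and without free RNA, and in cluster 8 it did not hold for the replication genes once free RNA was taken off.

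T cell-like cells numbered 485 with 2107450 UMIs in LTS, against only 98 with 328180 UMIs in control. The makeup of this class differed between the libraries as well. Clustered more finely, at resolution 2, it held 467 LTS and 74 control cells. A cluster with Gzma, Ccl5 and Cd8b1 among its leading genes had 298 LTS and 13 control cells, and the other had 169 LTS and 61 control cells. An unnamed cluster led by Gzma, Gzmb and Nkg7 had 23 LTS and 24 control cells. The part of makeup in the ratios below was not tested. Replication genes summed to 1076 CPM in LTS (1032 to 1121) and 1356 CPM in control (1233 to 1488), a ratio of 0.794 (0.717 to 0.881). Mitosis genes summed to 1377 CPM (1328 to 1429) in LTS and 2121 CPM (1966 to 2284) in control, a ratio of 0.650 (0.598 to 0.707). Of 37 tested members 18 were called lower and 0 higher, where 18.9% of 7011 tested genes were called lower and 9.94% higher. Of the 18, 13 were mitosis genes and 5 replication genes. The median log2 ratio was -0.67 over the mitosis genes and -0.41 over the replication genes tested, and the median over all tested genes was itself -0.14.

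Ccnb2 had 43.7 CPM in LTS and 88.4 CPM in control T cell-like cells, and Ccna2, the cyclin of late replication and early mitosis, had 46.5 CPM in LTS and 91.4 CPM in control. Prc1, which bundles microtubules of the central spindle, had 68.8 CPM in LTS and 122 CPM in control (0.564, 0.395 to 0.823). Aurkb, the kinase that corrects chromosome attachment, had 26.1 CPM in LTS and 57.9 CPM in control. All 4 of these mitosis genes were called lower. Cenpe had 51.7 CPM in LTS and 110 CPM in control, but 41.7% of its 36 control UMIs came from 1 cell. In the nucleotide genes Tk1 had 40.8 CPM in LTS and 76.2 CPM in control, and Tyms had 45.6 CPM in LTS and 82.3 CPM in control, while Rrm1 had 66.0 CPM in LTS and 57.9 CPM in control and Rrm2 90.2 CPM in LTS and 97.5 CPM in control. The thymidine genes were called lower and the ribonucleotide reductase genes were not, a contrast that rests on few UMIs. Control cells held 27 UMIs of Tyms, 25 of Tk1, 19 of Rrm1 and 32 of Rrm2. The share that free RNA would give had a median of 52.0% in LTS and 76.2% in control over the replication genes. Over the mitosis genes it was 48.6% in LTS and 53.1% in control. Mcm4 had 52.7 CPM in LTS and 48.8 CPM in control, and Slbp had 132 CPM in LTS and 143 CPM in control. Brca1 rested on 2 control UMIs, and its ratio of 2.65 had an interval of 0.679 to 22.7. Free RNA would give 522 CPM of replication genes in LTS and 875 CPM in control, and 665 CPM in LTS and 1205 CPM in control of mitosis genes. With it taken off, the log2 ratios were -0.41 and -0.98, against -0.33 and -0.62 before.

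In endothelial-like cells, the lining of vessels, the mitosis genes were further apart than the replication genes in the summed counts. Replication genes summed to 856 CPM in LTS (812 to 900.4) and 1155 CPM in control (1110 to 1201), a ratio of 0.741 (0.694 to 0.791). Mitosis genes summed to 1687 CPM (1627 to 1750) in LTS and 2624 CPM (2556 to 2693) in control, a ratio of 0.643 (0.615 to 0.673). Giving every cell equal weight turned that order, with log2 ratios of -0.46 for replication and -0.38 for mitosis genes, against -0.43 and -0.64 in the sums. Of 39 tested members 18 were called lower, 13 mitosis and 5 replication genes, and 0 higher, where 3.29% of 6869 tested genes were called lower and 2.4% higher. Nusap1 was the furthest, with 31.4 CPM in LTS and 80.1 CPM in control (0.392, 0.283 to 0.535). Aurkb had 24.4 CPM in LTS and 60.5 CPM in control (0.403, 0.278 to 0.575). Birc5, the partner of Aurkb in the passenger complex, was not called, and had 191 CPM in LTS and 214 CPM in control (0.892, 0.772 to 1.03).

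Mcm7 was the furthest of the replication genes in endothelial-like cells, with 45.3 CPM in LTS and 107 CPM in control (0.425, 0.324 to 0.552). Mcm5, Mcm6, Rrm1 and Cdc45 were the others called lower. Mcm2, of the same ring, had 37.8 CPM in LTS and 39.6 CPM in control, and Slbp had 95.3 CPM in LTS and 82.9 CPM in control. Free RNA would give 546 CPM of replication genes in LTS and 743 CPM in control, most of each sum, and 695 CPM in LTS and 1023 CPM in control of mitosis genes. Over the replication genes the median of that share was 60.9% in LTS and 67.4% in control, and over the mitosis genes 45.0% in LTS and 40.1% in control. With free RNA taken off, the log2 ratios were -0.74 for replication and -1.02 for mitosis genes. Without the cells that held 3 or more tumour marker UMIs, 17 LTS and 18 control cells were left, and the log2 ratios were -0.19 for replication and -0.63 for mitosis, against -0.43 and -0.64 with all cells. The replication value thus moved away from 0 when free RNA was subtracted and toward 0 in the few cells with least tumour RNA. In bulk sums like these, fewer dividing cells and fewer transcripts per dividing cell cannot be told apart.

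**Figure D5:**
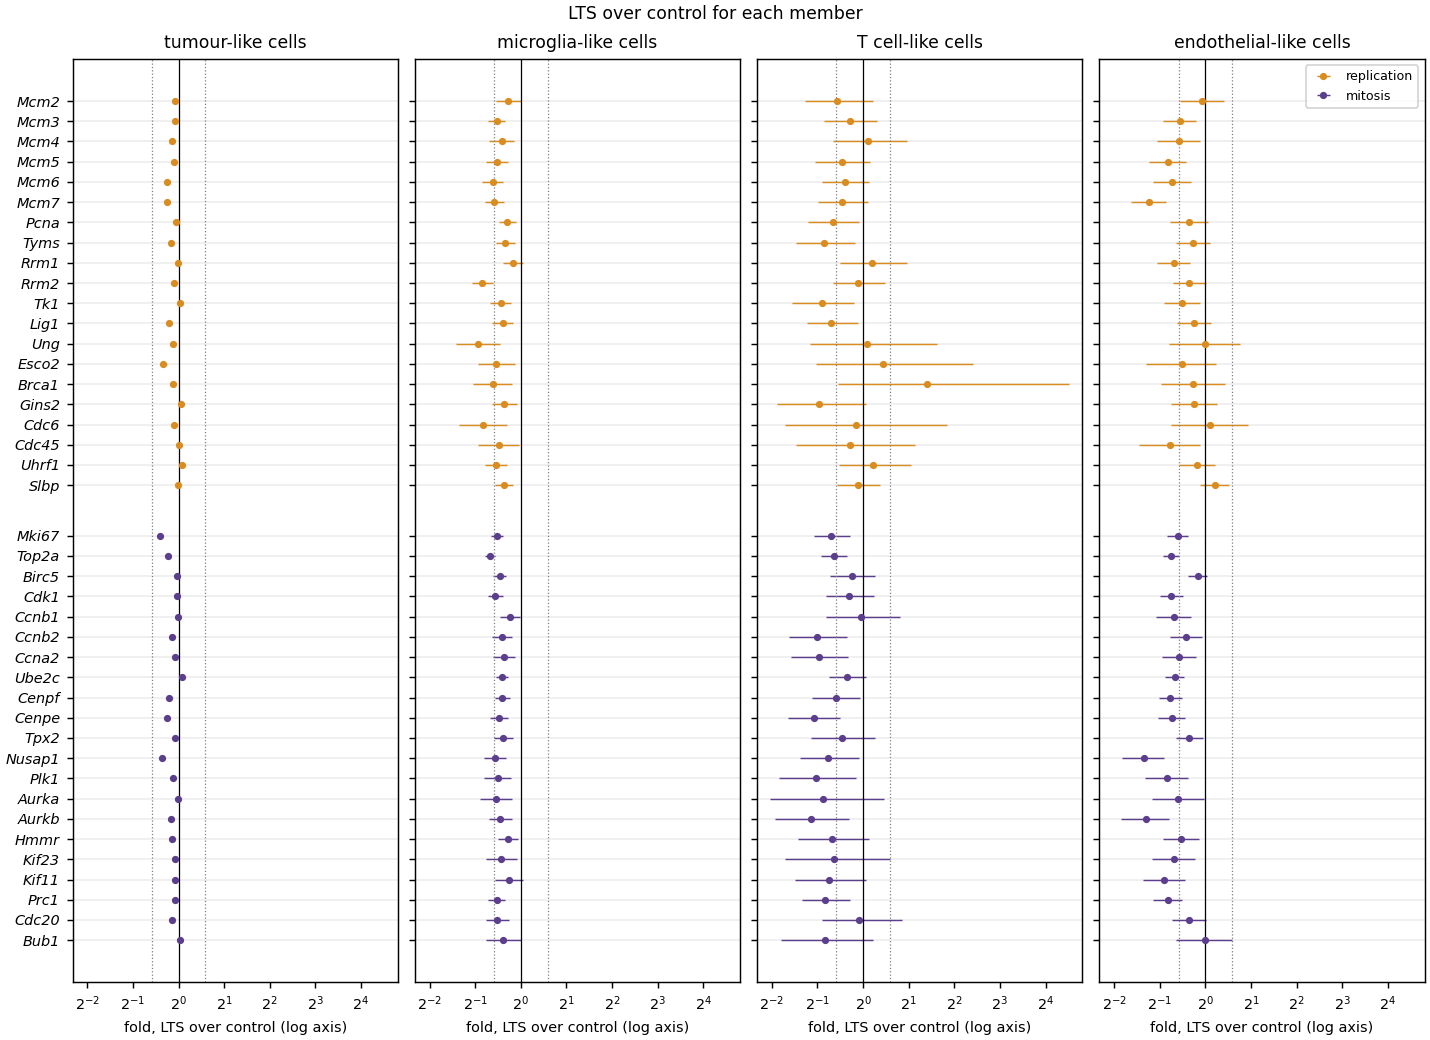
Ratio of LTS over control for each gene and class on a log axis, replication genes in orange and mitosis genes in purple, with 95% counting intervals and dotted lines at 1.5-fold. Points in tumour-like cells lie near 1, those in microglia-like cells lie left of 1, and those in T cell-like and endothelial-like cells spread more widely with wider intervals.

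The balance of the lists within a class does not depend on the scaling between libraries. The log2 ratio of replication over mitosis UMIs was -0.66 in LTS and -0.70 in control tumour-like cells, and -0.80 in LTS and -0.82 in control microglia-like cells. It was -0.36 in LTS (-0.44 to -0.28) and -0.65 in control (-0.82 to -0.47) T cell-like cells, and -0.98 in LTS and -1.18 in control endothelial-like cells. Uncalled barcodes stood at -0.35 in LTS and -0.46 in control. T cell-like cells of LTS thus stood at the balance of the free RNA, and the endothelial-like cells furthest toward mitosis genes. With free RNA taken off, the balance was -0.91 in LTS and -0.99 in control microglia-like cells, -0.36 in LTS and -0.93 in control T cell-like cells, and -1.68 in LTS and -1.96 in control endothelial-like cells. The comparisons with tumour-like cells that follow have no free RNA taken off. Relative to tumour-like cells, the median replication gene stood at 0.477 in LTS and 0.647 in control microglia-like cells, and the median mitosis gene at 0.552 in LTS and 0.683 in control. In endothelial-like cells of control 9 of the 21 mitosis genes were at or above the tumour-like level, and of LTS 2, with 0 of the 20 replication genes in either.

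Cell by cell, fewer host cells than tumour-like cells held several UMIs of a list. After thinning each cell to 1000 UMIs, 48.4% of LTS (46.4 to 50.3) and 51.5% of control (50.2 to 52.9) tumour-like cells held at least 2 mitosis UMIs, and 42.3% in LTS and 45.1% in control held at least 2 replication UMIs. In microglia-like cells 26.4% in LTS (23.5 to 29.5) and 39.6% in control (36.8 to 42.5) held at least 2 mitosis UMIs, and 19.9% in LTS and 29.9% in control at least 2 replication UMIs. In T cell-like cells mitosis UMIs reached 2 in 16.9% of LTS (13.7 to 20.5) and 36.7% of control (27.2 to 47.1) cells, and replication UMIs in 18.4% in LTS and 34.7% in control. In endothelial-like cells the mitosis shares were 35.1% in LTS (24.4 to 47.1) and 44.8% in control (36.4 to 53.3), and the replication shares 21.6% in LTS and 26.6% in control, with intervals that overlap. Choroid plexus-like cells, the class read as background, reached 2.94% of LTS cells (0.36 to 10.2) for mitosis and 8.82% for replication. Control had 12 such cells, of which 3 reached 2 mitosis UMIs and 1 reached 2 replication UMIs. Their median depth was 4377 UMIs in LTS and 2045 in control. Microglia-like cells had a median of 4030 in LTS and 4108 in control, T cell-like cells 3262 in LTS and 2121 in control and endothelial-like cells 16200 in LTS and 11680 in control. All cells had at least 1000 UMIs, so none was left out. Thinning evens the depth but does not take off free RNA. Free RNA would give 665 CPM of mitosis genes in LTS and 1205 CPM in control T cell-like cells. In microglia-like cells it would give 241 CPM in LTS and 591 CPM in control. These levels are higher in control, as the shares are, and their part in the shares was not tested. Without thinning the mitosis shares were 96.9% in LTS and 98.3% in control tumour-like, 64.8% in LTS and 78.6% in control microglia-like, 52.8% in LTS and 69.4% in control T cell-like and 81.1% in LTS and 93.7% in control endothelial-like cells.

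Mitosis UMIs were concentrated in few host cells. The 48 LTS T cell-like cells with most of them, the top 10% of the class, held 55.0% of its mitosis UMIs after thinning, and 10 control cells held 46.2%. In microglia-like cells the top 10% of cells held 50.1% in LTS and 39.2% in control, and in tumour-like cells 36.0% in LTS and 33.8% in control. Replication UMIs were spread more evenly, at 36.9% in LTS and 31.8% in control T cell-like, 40.7% in LTS and 34.6% in control microglia-like and 31.1% in LTS and 29.3% in control tumour-like cells. The sums above use unthinned counts, which were more concentrated. There the top 10% held 75.1% of mitosis UMIs in LTS and 65.5% in control T cell-like cells. In microglia-like cells they held 69.7% in LTS and 53.4% in control. The top control T cell-like cell alone held 14.1%. Thinning to 5000 UMIs kept only the deeper microglia-like cells, 384 in LTS (of 871) and 461 in control (of 1152). Their median was 2 mitosis UMIs in LTS and 4 in control, while the highest held 63 in LTS and 62 in control. The highest tumour-like cells held 62 in LTS and 89 in control, so a few host cells came near or into the same range.

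Other genes of the same steps, from lists of 63 further replication genes, 79 further mitosis genes and 22 regulators of the cycle, were close to level in tumour-like cells too. Of these 63, 48 were tested and 0 were called, and of 76 further mitosis genes found in the matrices 64 were tested and 0 were called. The 2 lowest of the replication list were Rfc3, a clamp loader subunit, and Prim2, a primase subunit. Rfc3 had 44.8 CPM in LTS and 57.6 CPM in control, and Prim2 had 17.2 CPM in LTS and 22.9 CPM in control. Rfc3 was the lower by the log2 ratio with the pseudocount, and Prim2 by the plain ratio (0.754 against 0.777). Nasp, a histone chaperone, had 229 CPM in LTS and 263 CPM in control. Rpa3, of the single-strand binding complex, was highest, with a ratio of 1.26 (1.22 to 1.30), and Pole4 and Dut had 1.06 and 1.05. Of the further mitosis genes Tuba1c, Kif20b and Smc4 were lowest, with ratios of 0.787, 0.801 and 0.812, and Cenpa, Cep55 and Ect2 highest, with 1.07, 1.09 and 1.10. Cdkn2a, a locus that encodes inhibitors of the cell cycle, had 85.5 CPM in LTS and 67.8 CPM in control (1.26, 1.22 to 1.30). Cdk2 and Cdk6, kinases of the entry into the cycle, had ratios of 1.13 and 1.08, and Btg1, Mdm2 and Ccnd3 had 0.886, 0.944 and 0.974.

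In microglia-like cells the further lists were also on the lower side in LTS. There 8 of 45 tested replication genes and 6 of 51 tested mitosis genes were called lower and 0 higher, where 2.65% of all tested genes were called lower. Their median log2 ratios were -0.40 and -0.35, against -0.01 over all tested genes. In endothelial-like cells 4 of 45 replication and 16 of 62 mitosis genes were called lower, and 1 and 0 higher, where 3.29% of all tested genes were called lower and 2.4% higher. The medians were -0.30 and -0.43, against -0.02 over all tested genes. T cell-like cells differed between the lists. Of the further mitosis genes 15 of 49 were called lower and 2 higher, with a median of -0.40, where 18.9% of all tested genes were called lower and 9.94% higher. The further replication genes lay near all genes or under them: 5 of 47 were called lower and 3 higher, the median was -0.17 against -0.14 over all tested genes, and 30 of 47 were below 0 against 4247 of 7011. The regulators had medians of -0.01 in microglia-like, 0.10 in T cell-like and -0.05 in endothelial-like cells.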

How the data were processed

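Both libraries were read as UMI counts per gene and barcode, deposited by the authors without normalization in matrices that list every barcode of the chemistry. Per the file headers, Cell Ranger 4.0 made them, and the genome was mm10, per the submitters' processing notes. Cells were clustered together without integration: each cell was scaled to 10000 UMIs and put on a log scale, 267 cell cycle, histone and receptor genes were left out, and 2000 variable genes gave 30 components and 15 neighbours for Leiden clustering at resolution 1 (Python 3.11.15, numpy 2.4.6, pandas 2.3.3, scikit-learn 1.9.0, leidenalg 0.10.2, scipy 1.17.1, scanpy 1.11.5, matplotlib 3.10.9, anndata 0.12.19). A cluster took a class name from at least 3 markers found in 10% of its cells at 2 times the level elsewhere, and tumour-like names also needed Y-linked levels under 10% of the immune level. Scrublet marked 68 LTS cells (1.41%) and 0 control cells, so the reported values keep the marked cells, and leaving them out was an alternative chosen after seeing the data. Cluster 12 stayed unnamed for a doublet score over 0.2.

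Counts were summed per class and library and scaled to CPM. Intervals are exact Poisson, exact conditional (ratios) and Clopper-Pearson (shares) at 95%. The sums and calls were tested on simulated data, Poisson draws from the profile of both libraries together. In tumour-like sums 100% of 2-fold changes and 0% of unchanged genes were called, and in T cell-like sums 76% and 13.9%. Single calls in T cell-like cells are therefore weak. The draws hold counting error only, so these rates leave out the spread between cells, animals and preparations. Microglia-like and endothelial-like sums were not simulated. All 41 members are named. From each further list the text names the 3 genes at each end of the log2 ratio in tumour-like cells, with at least 20 CPM, and outside the lists the 8 genes most like each list's mean among genes found in 5% of tumour-like cells, of which 1 is not reported here. The members, lists and tests were chosen with earlier results of these data known. Alternatives covered scaling, cell weights, free RNA, marked doublets, single microglia-like clusters, cell filters, clustering resolution, thinning, pseudocount and minimum level.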

Additional observations from a re-analysis of the deposited data

Results flagged for a closer look

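In clusters outside the compared classes, 10 of 36 values (a list in a cluster and library) lay above the level of uncalled barcodes, with the counting intervals apart, and 26 did not. That level was 1588 CPM of replication and 2022 CPM of mitosis genes in LTS and 1558 and 2146 CPM in control. The monocyte-like, B cell-like, dendritic-like and choroid plexus-like cells and the unnamed cluster 16 had no value above it, and the 10 values follow. Cluster 3, left unnamed for low UMIs, held 1798.8 CPM of replication and 2928.3 CPM of mitosis genes in 290 LTS cells, and 1774.3 and 2778.9 CPM in 893 control cells. Cluster 18, also of low UMIs, held 2299 and 3183.2 CPM in 15 LTS cells and 1916.9 and 3100.5 CPM in 63 control cells. Cluster 12, of high doublet scores, held 2455.5 CPM of mitosis genes in 223 control cells. Oligodendrocyte-like cells held 3678.5 CPM of mitosis genes in 16 LTS cells, against 2225 CPM in 14 control cells, whose interval of 1988 to 2483 CPM included the uncalled level. Replication genes in oligodendrocyte-like cells, and both lists in LTS cells and replication genes in control cells of cluster 12, were not above it by that measure. These clusters entered no comparison between LTS and control, and what sets their levels was not tested.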

How the results depend on the processing

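Of 146 alternative values, 100 lay within the counting interval of the reported value (for shares, the range both intervals allow, and for counts of members, within 1.5 times), 45 lay outside it and 1 changed direction. Of the 100, 8 were still over 1.5 times apart from the reported value. Both lists stayed lower in LTS in all 4 classes under all alternatives but that 1. Log2 ratios of LTS over control are given for replication and then mitosis. In tumour-like cells (-0.09 and -0.14) median-of-ratios scaling gave -0.0776 and -0.12, equal weight per cell -0.10 and -0.16, and leaving out the gene with most UMIs -0.0765 and -0.11. In microglia-like cells (mitosis -0.48) equal weight gave -0.58, free RNA taken off -0.53, leaving out cells of 3 or more tumour marker UMIs -0.62, and cluster 4 alone -0.40. The tumour marker filter left 503 LTS and 375 control microglia-like cells, so it took unequal parts of the 2 libraries. With single clusters, alternatives chosen after seeing the data, cluster 8 gave -0.19 and -0.19 and, with free RNA taken off, 0.18, the value that changed direction, and -0.0502; cluster 4 with free RNA taken off gave -0.37 and -0.42 (replication reported at -0.46). The cause was not tested. In T cell-like cells (-0.33 and -0.62) median-of-ratios scaling gave -0.21 for replication, equal weight -0.66 and -0.86, free RNA by Rhox5 alone, also chosen after seeing the data, -0.48 and -0.95, and resolution 2 -0.57 and -0.86. For mitosis, free RNA taken off gave -0.98, leaving out cells with tumour markers -0.78 and a minimum of 2000 UMIs -0.76. The tumour marker filter left 378 LTS and 36 control T cell-like cells, and the minimum of 2000 UMIs left 423 LTS and 53 control cells. In endothelial-like cells (-0.43 and -0.64) free RNA taken off gave -0.74 and -1.02, by Rhox5 -0.80 and -0.92; leaving out cells with tumour markers gave -0.19 for replication and equal weight -0.46 and -0.38, which turned the order of the lists.

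The balance moved when the member with most UMIs was left out, to -0.50 in LTS and -0.53 in control tumour-like, -0.71 in LTS and -0.69 in control microglia-like, -0.26 in LTS T cell-like and -1.10 in control endothelial-like cells. At resolution 2 it was -0.45 in LTS T cell-like and -1.13 in LTS and -1.27 in control endothelial-like cells. With no minimum level 1 T cell-like member was called higher, Brca1, against 0. The log2 ratio of the shares of cells with 2 UMIs was -0.59 for replication and -0.58 for mitosis in microglia-like and -0.92 and -1.12 for T cell-like. Unthinned it was -0.13 and -0.28 in microglia-like, and -0.18 and -0.39 in T cell-like cells, and thinned to 5000 UMIs it was -0.32 for replication in microglia-like cells, and -0.16 and -0.46 in T cell-like cells, of which 76 LTS and 13 control cells remained. Tumour-like shares (-0.0927 and -0.0920) gave -0.0067 and -0.0207 unthinned and -0.0336 for replication thinned to 5000 UMIs, and endothelial-like shares (-0.30 and -0.35) gave -0.19 and -0.21 unthinned. No paired analysis was possible because each group has 1 library. The depth of control T cell-like and of endothelial-like cells limits what single members can show.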
